A study of Mus musculus with 79 samples.

Results

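The genes described here make the channels that let calcium out of the endoplasmic reticulum and the pumps that push calcium back into it or out of the cell. They are 3 ryanodine receptors (Ryr1, Ryr2 and Ryr3), 2 receptors for inositol trisphosphate (Itpr1 and Itpr2), the pump of the endoplasmic reticulum (Atp2a2) and 4 pumps of the plasma membrane (Atp2b1, Atp2b2, Atp2b3 and Atp2b4). The 10 genes were selected by name from the 38879 genes of the deposited table, and all 10 were found. The list was drawn up with results of these data known, so the differences of its members between neuron types are given as a description, with no p-value of a single gene. Where the number of members past a threshold between types is printed, it is a description too. The study asked how chronic stress changes gene expression in 4 kinds of neuron in the medial prefrontal cortex of the mouse.

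All animals were male C57Bl/6J mice. The stressed arm, called UCMS in the labels, received a changing sequence of mild stressors for 5 weeks (among them restraint, a forced bath, wet bedding, a tilted cage, the smell of a predator and a disturbed light cycle) and lived singly. Control mice lived in groups with littermates, so housing differed together with stress and the effects of each cannot be told apart. Both arms also went through behavioural tests in the last weeks. The 4 types were the excitatory pyramidal cells (PYR) and 3 kinds of inhibitory cell, named for parvalbumin (PV), for somatostatin (SST) and for vasoactive intestinal peptide (VIP). They were stained with RNA probes in frozen sections and cut out by laser, 130 cells to a library. There were 79 libraries from 20 mice, 10 per arm, with 1 library per mouse and type except that 1 UCMS mouse had none from PV neurons. The groups thus held 10 libraries each, and 9 for UCMS PV neurons.

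Library totals ran from 3642579 to 13529571 reads, with a median of 10175343. The 7 libraries of fewest reads were 6 of VIP neurons (U4, U6, U9, U10, U602 and U608) and PV library U3. The last stood apart for several of these genes. It is included in all values of control PV libraries unless the text says that it was left out. The defining markers of PYR (Slc17a7), PV (Pvalb), SST (Sst) and VIP neurons (Vip) had reads in every control library of their type and were highest there. RNA of other cells was present as well: all 9 astrocyte markers had a mean of at least 10 normalized counts over the libraries, and Slc17a7, at 14218 ± 2014 in control PYR libraries, also reached 2819 ± 743 in PV libraries, 3262 ± 990.3 in SST libraries and 4794 ± 1498 in VIP libraries (SD, n = 10 each).

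As background, calcium is kept low in the cytosol and high in the endoplasmic reticulum. Inositol trisphosphate receptors open when that messenger, made by phospholipase C, binds them, and ryanodine receptors open when calcium itself rises. In neurons these channels add to the calcium that enters through the surface, while the SERCA pump refills the store and the plasma membrane pumps, stimulated by calmodulin, clear calcium from the cell. Parvalbumin interneurons fire fast and hold much calcium buffer, and pyramidal neurons use store calcium in dendrites and spines.

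Members of a family are copies of one another, so their coding sequences were compared first, to see how long a stretch is the same in 2 genes. Coding sequences are the longest in GENCODE M21 (GRCm38). The longest run of identical bases between any 2 ryanodine receptors was 35, between Ryr1 and Ryr2, out of 15183 and 14898 coding bases. Between Itpr1 and Itpr2 it was 28 bases. Among the plasma membrane pumps it was 56 bases, between Atp2b2 and Atp2b3, and 20 to 35 bases for the other 5 pairs. Atp2a2 shared at most 17 bases in a row with any plasma membrane pump. The sources used here do not give the read length or say how reads matching several genes were treated. The windows around the longest runs are shown, with capitals at the bases that differ from the first gene of each set in an alignment without gaps.
Ryr2: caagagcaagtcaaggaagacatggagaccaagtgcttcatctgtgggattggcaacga
Ryr1: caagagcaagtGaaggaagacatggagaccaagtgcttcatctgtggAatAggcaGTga
Ryr3: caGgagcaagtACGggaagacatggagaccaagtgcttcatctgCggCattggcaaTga
Itpr1: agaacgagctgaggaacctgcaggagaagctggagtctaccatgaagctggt
Itpr2: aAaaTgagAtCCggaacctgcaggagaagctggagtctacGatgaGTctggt
Atp2b2: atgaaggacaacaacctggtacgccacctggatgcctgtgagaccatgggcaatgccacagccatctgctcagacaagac
Atp2b3: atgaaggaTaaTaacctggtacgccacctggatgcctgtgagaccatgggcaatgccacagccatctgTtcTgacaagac
Atp2b4: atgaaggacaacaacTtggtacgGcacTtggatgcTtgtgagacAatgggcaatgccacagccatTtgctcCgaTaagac
Atp2b1: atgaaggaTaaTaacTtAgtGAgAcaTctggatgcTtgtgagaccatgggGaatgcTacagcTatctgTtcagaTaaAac

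The ryanodine receptor window covers coding bases 14626 to 14684 of Ryr2, across 2 exons at chr13:11556667-11558073 on the minus strand, and differs at 5 of 59 bases in Ryr1 and 7 of 59 in Ryr3. The inositol trisphosphate receptor window lies in 1 exon of Itpr1 at chr6:108541973-108542024 on the plus strand and differs at 8 of 52 bases in Itpr2. The pump window lies in 1 exon of Atp2b2 at chr6:113789910-113789989 on the minus strand. Of its 80 bases, 4 differ in Atp2b3, 8 in Atp2b4 and 15 in Atp2b1.

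In GRCm38, Ryr1 (ENSMUSG00000030592) lies at chr7:29003344-29125179, Ryr2 (ENSMUSG00000021313) at chr13:11553102-12106945 and Ryr3 (ENSMUSG00000057378) at chr2:112631355-113217096. Itpr1 (ENSMUSG00000030102) lies at chr6:108213096-108551109 and Itpr2 (ENSMUSG00000030287) at chr6:146108299-146502223. Atp2a2 (ENSMUSG00000029467) lies at chr5:122453513-122502225, Atp2b1 (ENSMUSG00000019943) at chr10:98914406-99026143 and Atp2b2 (ENSMUSG00000030302) at chr6:113743831-114042613. Atp2b3 (ENSMUSG00000031376) lies at chrX:73503086-73571005 and Atp2b4 (ENSMUSG00000026463) at chr1:133699457-133801041. Exons of Ryr3 share 916 bases, 4.83% of its exon length, with Aven on the opposite strand, which averaged 44.3 normalized counts. Ryr1, Itpr1 and Atp2a2 each share less than that with antisense or unverified gene models. The sources used here do not say whether reads were counted by strand, so the reads of such shared bases cannot be told apart.

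The genes differed widely in level. Per kilobase of exon, averaged over all 79 libraries, Atp2a2 was highest at 613 normalized counts per kb, followed by Atp2b2 at 498, Itpr1 at 335, Atp2b3 at 234, Atp2b1 at 219, Ryr2 at 214 and Atp2b4 at 191. Ryr3 stood at 52.3, Ryr1 at 11.0 and Itpr2 at 10.6. The 7 upper genes had reads in every library. Ryr1 had 0 reads in 6 libraries, Itpr2 in 8 and Ryr3 in 1. A count of 0 allows a true mean of up to 3 reads, so in those libraries a low level cannot be told from absence. Each of these genes had reads in the remaining libraries.

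**Figure D1:**
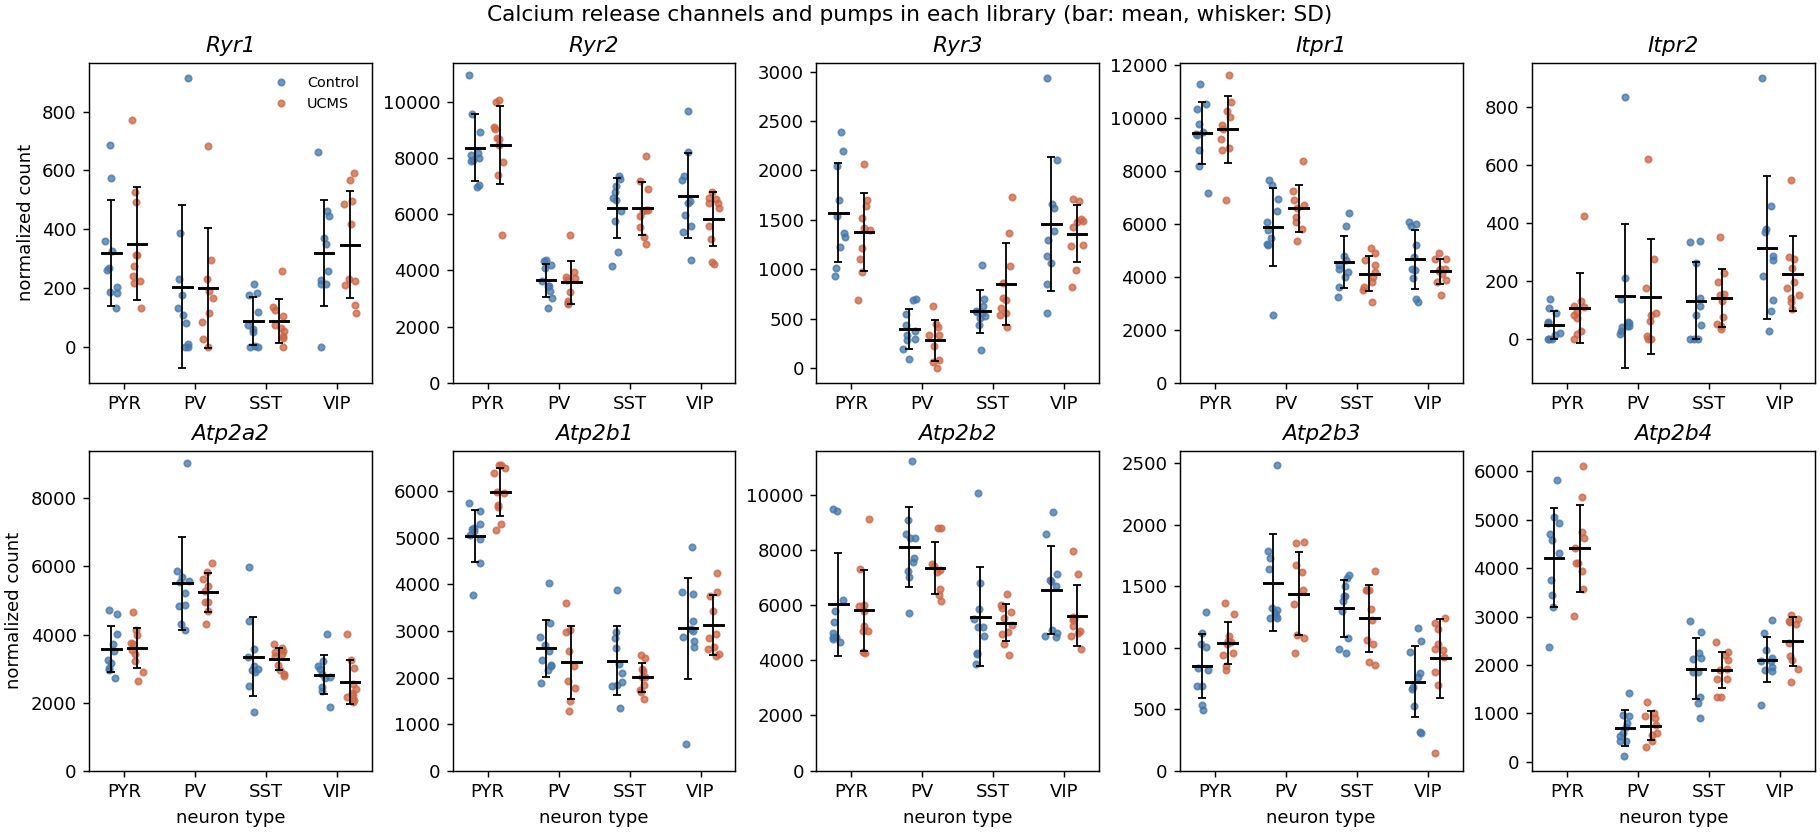
Normalized counts (vertical axes, linear) of the 10 genes in every library by neuron type (horizontal axes), control mice blue and UCMS mice orange, with the mean as a bar and the SD as a whisker (n = 10 libraries per group, 9 for UCMS PV). Atp2b4 is highest in PYR and lowest in PV neurons in both arms, Atp2a2 is highest in PV neurons, and Ryr1 and Itpr2 scatter widely down to 0.

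Ryr2, the most abundant ryanodine receptor in each type and the form best known from heart and brain, was highest in PYR and lowest in PV neurons. Its normalized counts in control PYR libraries ran from 6965 to 10957 with a median of 8056. They ran from 4156 to 7357 in SST libraries (median 6548), from 4375 to 9669 in VIP libraries (median 6421) and from 2651 to 4380 in PV libraries (median 3532). The PYR and PV ranges did not overlap, and PYR stood above PV in 10 of 10 control mice, by a ratio of means of 2.29. In UCMS mice the ratio was 2.37 and PYR was higher in 9 of 9. The order was PYR, VIP, SST, PV in control and PYR, SST, VIP, PV in UCMS mice, and SST and VIP neurons differed by less than the larger of their SDs in both. As these are bulk libraries, fewer cells of a type and less RNA per cell cannot be told apart.

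Ryr3, a ryanodine receptor spread over many tissues at low level, was higher in PYR and VIP than in SST and PV neurons. In control mice it stood at 1573 ± 498 normalized counts in PYR, 1462 ± 678 in VIP, 574 ± 217 in SST and 396 ± 202 in PV libraries (SD, n = 10 each). The lowest PYR library, at 935, lay above the highest PV library, at 701. PYR was above PV in 10 of 10 control and 9 of 9 UCMS mice, with ratios of means of 3.97 and 4.87. PYR and VIP neurons differed by less than their SD in both arms. SST stood above PV by less than the larger SD in control mice and by more than it in UCMS mice, at 850.2 ± 415 and 282 ± 207.

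Ryr1, the skeletal muscle form, was low everywhere and lowest in SST neurons. Control libraries held medians of 264 normalized counts in PYR (lowest 131, highest 687), 304 in VIP (0 to 661), 121 in PV (0 to 915) and 66.6 in SST neurons (0 to 212). The PV mean of 205 ± 277 fell to 126 ± 128 without library U3, which held the highest value of 915. No 2 neighbours in the order of types differed by more than the larger SD, in either arm. PYR was nevertheless above SST in 9 of 10 control and 10 of 10 UCMS mice, with ratios of means of 3.63 and 3.98.

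Itpr1, the main neuronal inositol trisphosphate receptor, was highest in PYR neurons. Its counts in control PYR libraries ran from 7190 to 11279 (median 9439), and in SST libraries from 3251 to 6433 (median 4377). VIP libraries ran from 3064 to 6062 (median 4518), so neither SST nor VIP libraries reached the PYR range. PYR stood above both in 10 of 10 mice of each arm, with ratios of means of 2.07 and 2.02 in control and 2.32 and 2.27 in UCMS mice. PV libraries lay between, at 5888 ± 1468, and at 6258 ± 941 without library U3, whose 2559 was the lowest of all. SST and VIP neurons differed by less than their SD.

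Itpr2, the form best known from heart, liver and astrocytes, made up a small part of the pair and had its highest mean in VIP neurons. Control VIP libraries ran from 28.4 to 902 normalized counts (median 280) and PYR libraries from 0 to 139 (median 36.8). The ratio of VIP to PYR means was 6.57 in control mice, with VIP higher in 9 of 10, and 2.11 in UCMS mice (224.6 ± 130 against 107 ± 120, n = 10 each). VIP was above PV in 7 of 10 control and 7 of 9 UCMS mice, and above SST in 6 of 10 mice of each arm. No 2 neighbours in the order of types differed by more than the larger SD, in either arm. The ranges overlapped between all pairs of types. The summed astrocyte markers were also highest in VIP libraries, from 6711 to 16459 in control mice. They ran from 5261 to 11609 in PYR, 5515 to 9919 in PV and 5380 to 9272 in SST libraries. Most of that sum was Slc1a2, at 8994 ± 2223 in VIP libraries, and Slc1a3, Aqp4, Aldoc and Fgfr3 were also highest there. Gfap and Gja1 were highest in SST, S100b in PYR and Aldh1l1 in PV libraries. The mean sums of microglial and vascular markers were highest in VIP libraries of control mice too, at 706 ± 381 and 579 ± 299.8. The part of these cells in the Itpr2 level was not tested.

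The start regions of Ryr2 and Itpr2 are shown because these genes differ in level and in the type where they were highest. The former was abundant and highest in PYR neurons, the latter sparse and with its highest mean in VIP neurons. Each run holds the 150 bases before the RefSeq transcript start, 5′ to 3′ on the gene's strand (GRCm38.p6), at chr13:12106946-12107095 (minus strand) for Ryr2 and chr6:146502224-146502373 (minus strand) for Itpr2. Capitals mark the GC box motif GGGCGG on either strand.
Ryr2: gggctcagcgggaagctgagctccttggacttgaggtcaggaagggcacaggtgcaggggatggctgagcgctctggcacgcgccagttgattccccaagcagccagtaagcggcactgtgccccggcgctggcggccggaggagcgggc
Itpr2: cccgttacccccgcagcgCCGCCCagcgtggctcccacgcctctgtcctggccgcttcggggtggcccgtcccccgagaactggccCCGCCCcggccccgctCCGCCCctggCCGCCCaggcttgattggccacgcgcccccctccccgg
In the 250 bases before the start, Ryr2 held 0 and Itpr2 held 4 of these motifs, and neither held TGACGTCA or TATAAA on either strand. Of 32851 promoters in the RefSeq table, 32.7% held GGGCGG, 1.55% TGACGTCA and 12.4% TATAAA in the same 250 bases. The GC content was 63.2% for Ryr2 and 74.4% for Itpr2, against a median of 52.4% over the table. Of the 10 genes, 6 had an entry there (Ryr1, Ryr2, Itpr2, Atp2b1, Atp2b2 and Atp2b4).

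Among the pumps, Atp2a2, which encodes SERCA2 and refills the endoplasmic reticulum, was highest in PV neurons. Control PV libraries ran from 4133 to 9026 normalized counts (median 5380), PYR from 2731 to 4709 (median 3392), SST from 1733 to 5998 (median 3033) and VIP from 1864 to 4009 (median 2799). No VIP library reached the PV range. PV stood above PYR in 10 of 10 control and 9 of 9 UCMS mice, with ratios of means of 1.54 and 1.46, and above VIP in the same numbers of mice, with ratios of 1.95 and 2.01. The highest PV value was that of library U3, and without it the PV mean was 5115 ± 617 in place of 5506 ± 1367.

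Atp2b4, a plasma membrane pump of many tissues, had a wider ratio between its highest and lowest type than any of the other 6 abundant genes. Control PYR libraries ran from 2367 to 5823 (median 4449), VIP from 1181 to 2927 (median 2086), SST from 917 to 2910 (median 1990) and PV from 118 to 1432 (median 655). The PYR and PV ranges did not overlap. PYR was above PV in 10 of 10 control and 9 of 9 UCMS mice, with ratios of means of 6.04 and 5.90. PV was also below SST in 10 of 10 and below VIP in 10 of 10 control mice. SST and VIP neurons differed by less than their SD in control mice and by more than it in UCMS mice, at 1896 ± 380 and 2494 ± 503.

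Atp2b1, the widely expressed housekeeping pump of the plasma membrane, was also highest in PYR neurons. It stood at 5045 ± 563 normalized counts in PYR, 3058 ± 1090 in VIP, 2631 ± 614 in PV and 2363 ± 736 in SST libraries of control mice (SD, n = 10 each). In control mice the PYR range overlapped that of each other type, of which the highest library was VIP library U6 at 4811. In UCMS mice the lowest PYR library (5169) lay above every library of the other types, of which the highest was a VIP library at 4252.

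Atp2b2, the fast pump known from Purkinje and hair cells, was highest in PV neurons, by less. In control mice PV libraries held 8092 ± 1456, VIP 6536 ± 1597, PYR 6028 ± 1865 and SST 5583 ± 1795 normalized counts. No neighbours in that order differed by more than the larger SD. The highest PV value was that of library U3, and without it the PV mean was 7746 ± 1019. PV stood above VIP in 10 of 10 control mice and above PYR and SST in 8 of 10 each, and in 9 of 9 UCMS mice above each other type, with ratios of means of 1.26, 1.37 and 1.31 against PYR, SST and VIP.

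Atp2b3, a pump found mainly in brain, was higher in PV and SST than in PYR and VIP neurons of control mice. It stood at 1529 ± 397 in PV, 1321 ± 233 in SST, 850.1 ± 259 in PYR and 722 ± 288 in VIP libraries of control mice. The highest PV value was that of library U3, and without it the PV mean was 1423 ± 226. The PV and VIP ranges did not overlap in control mice (1241 to 2481 against 303 to 1156), though they did in UCMS mice, where the ratio of means was smaller (1439 ± 339 against 915 ± 321). The order of means was the same in UCMS mice. There no 2 neighbours in it differed by more than the larger SD (SST 1240 ± 271, PYR 1042 ± 171).

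The fit of each type against the mean of the other 3, with the mouse as a block, put these patterns on the log2(normalized count + 4) scale. In PYR neurons of control mice the log2 differences were 1.64 for Atp2b4 (SE 0.19), 1.26 for Ryr3 (SE 0.24), 0.99 for Atp2b1 (SE 0.16), 0.94 for Itpr1 (SE 0.11) and 0.66 for Ryr2 (SE 0.08). In UCMS mice they were 1.57, 1.28, 1.32, 0.98 and 0.75. In PV neurons of control mice they were -2.06 for Atp2b4 (SE 0.19), -1.56 for Ryr3 (SE 0.24), -0.94 for Ryr2 (SE 0.08), 0.78 for Atp2a2 (SE 0.11), 0.74 for Atp2b3 (SE 0.21) and 0.45 for Atp2b2 (SE 0.08). In UCMS mice they were -1.99, -2.84, -0.95, 0.78, 0.50 and 0.46. The Ryr3 value there includes PV library U604, which had 0 reads of it. All values of control mice include PV library U3. For Ryr1 and Itpr2, of low count, the PYR values were 1.69 (SE 0.65) and -1.91 (SE 0.72) in control mice. They were 1.34 (SE 0.46) and -0.77 (SE 0.57) in UCMS mice. Among all 10 genes the sign differed between the arms, whose mice are different animals, for Atp2a2 in PYR, Itpr1 and Itpr2 in PV, Ryr3, Itpr2 and Atp2b4 in SST and Atp2b1 and Atp2b2 in VIP neurons.

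**Figure D2:**
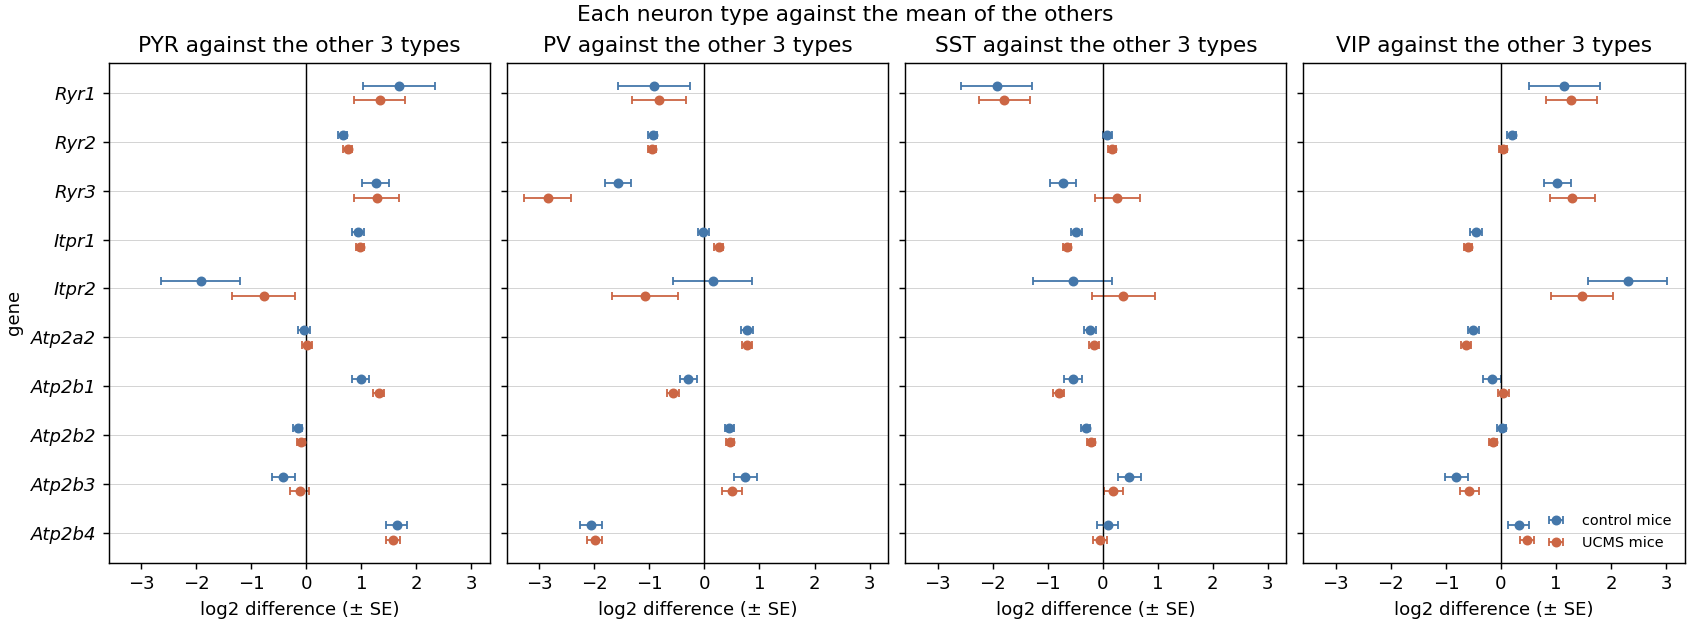
Fitted log2 difference (horizontal axes, whiskers ± SE) of each gene (vertical axis) between 1 neuron type and the mean over the remaining 3, for control mice (blue, 40 libraries) and UCMS mice (orange, 39 libraries). The points of both arms lie close together for Ryr2, Atp2a2, Atp2b2 and Atp2b4, while Ryr1 and Itpr2 have wide whiskers.

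In SST neurons Ryr1 was at -1.92 (SE 0.65) in control and -1.79 (SE 0.46) in UCMS mice, Itpr1 at -0.48 (SE 0.11) and -0.64 (SE 0.07), and Atp2b1 at -0.54 (SE 0.16) and -0.80 (SE 0.10). Ryr3 was at -0.72 (SE 0.24) in control and 0.26 (SE 0.41) in UCMS mice. The UCMS fits of Ryr3 include PV library U604, where it had 0 reads, and were not repeated without that library. In VIP neurons Itpr2 was at 2.30 (SE 0.72) and 1.47 (SE 0.57), Ryr3 at 1.03 (SE 0.24) in control mice with a 95% interval of 0.46 to 2.14 in UCMS mice, Atp2b3 at -0.81 (SE 0.21) and -0.57 (SE 0.17), and Atp2a2 at -0.50 (SE 0.11) and -0.63 (SE 0.09). Without the 7 libraries of fewest reads, the control VIP values were 1.69 for Itpr2 (SE 0.92) and 0.97 for Ryr3 (SE 0.28).

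A gene counted as different between types when limma with Benjamini-Hochberg adjustment put it under 0.05 and it differed by 2-fold. In control mice 2 of the 10 genes met that in PYR neurons (Atp2b4 and Ryr3, against 4.27% of all genes tested), 2 in PV (the same 2, lower, against 5.29%), 0 in SST (against 1.79%) and 2 in VIP neurons (Itpr2 and Ryr3, against 2.82%). In UCMS mice the counts were 2 in PYR (Atp2b1 and Atp2b4, against 4.98%), 2 in PV (Atp2b4 and Ryr3, against 7.37%), 1 in SST (Ryr1, lower, against 2.1%) and 0 in VIP neurons (against 4.15%). At an unadjusted p under 0.05 the type fits held 5 to 8 of the 10 each, beside 11.6% to 22.2% of all genes. Of the fits with 0 calls, SST control held 7 and VIP UCMS 8 (11.6% and 18.6% of all genes). By edgeR 0 of the 10 were called in either. The median log2 difference of the 10 genes in control mice was 0.80 in PYR, -0.16 in PV, -0.39 in SST and 0.11 in VIP neurons. Over all genes tested it was 0.04, -0.08, -0.04 and 0.02. The 10 genes were chosen with such values known, so these counts test nothing. Nothing is read from them or from the shares beside them.

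Pyramidal markers were present in the interneuron libraries, and their values stand beside the genes that are high in PYR neurons. In control mice PV libraries held Slc17a7, which loads glutamate into synaptic vesicles, at 19.8% of its PYR mean. They held Atp2b4 at 16.6%, Ryr3 at 25.2%, Ryr2 at 43.6%, Atp2b1 at 52.2% and Itpr1 at 62.4% of the PYR mean. In UCMS mice Slc17a7 was at 20.1% and Atp2b4 at 16.9%. The 8 pyramidal markers summed to 3745 to 6892 normalized counts in control PV, 4797 to 9588 in SST and 6238 to 12223 in VIP libraries, against 18642 to 25010 in PYR libraries, and none of the 8 was at 0 throughout. Of the 8, only Cux2 went the other way, with its lowest control mean in PYR neurons, at 786 ± 322. Its mean was 1052 ± 394 for PV, 1261 ± 431 for SST and 1264 ± 283 for VIP neurons. The sums of the interneuron libraries thus include a gene that was higher there than in PYR libraries. Pan-GABAergic markers in turn summed to 589.6 to 1520 in PYR and 28798 to 42186 in PV libraries. The part of pyramidal RNA in these levels was not tested.

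Shares within a family do not depend on the scaling of a library. Among the plasma membrane pumps, per kilobase, Atp2b2 took the largest mean share in every group, 53.9% ± 4.89 in control PV and 35.7% ± 9.06 in control PYR libraries (SD, n = 10 each). Atp2b4 took 26.1% ± 6.48 in PYR, 16.9% ± 3.95 in VIP, 15.6% ± 5.19 in SST and 4.85% ± 2.89 in PV libraries. Atp2b1 took 25.0% ± 3.21 in PYR and 14.8% ± 3.86 in PV libraries, and Atp2b3 13.2% ± 3.60 and 26.4% ± 3.37. Without scaling for length Atp2b1 took the larger share in UCMS PYR libraries, 35.0% against 33.4% for Atp2b2. Atp2b1 and Atp2b4 thus took larger mean shares in PYR than in PV libraries, and Atp2b2 and Atp2b3 smaller ones. Among ryanodine receptors Ryr2 took 71.6% ± 10.4 in VIP to 86.1% ± 4.66 in SST libraries, and Ryr3 12.2% ± 4.48 in SST to 23.9% ± 9.50 in VIP libraries. Itpr1 took 99.4% ± 0.575 of its pair in PYR and 91.8% ± 7.36 in VIP libraries.

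**Figure D3:**
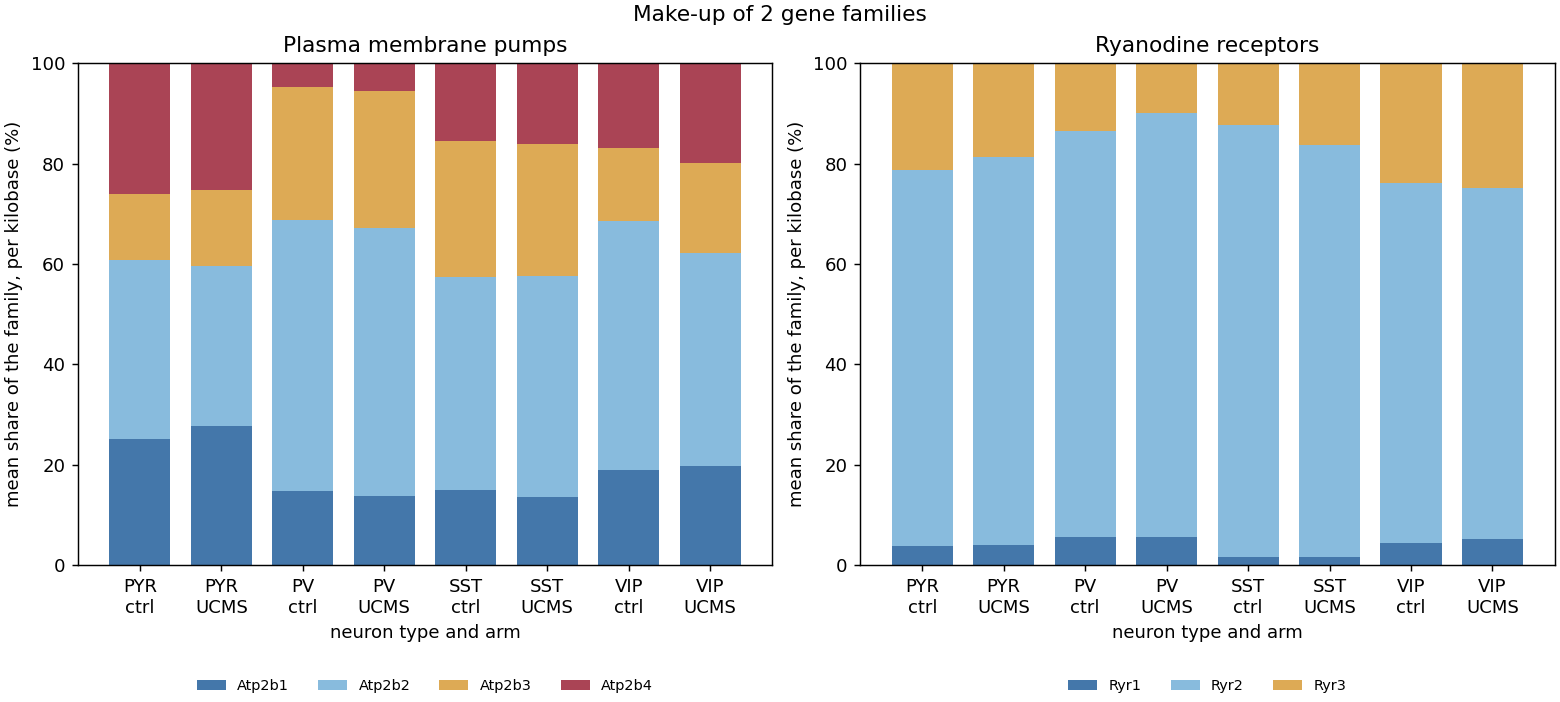
Mean share (vertical axes, percent of the family's summed level per kilobase) of each plasma membrane pump (left) and ryanodine receptor (right) in the 8 groups of neuron type and arm (ctrl: control mice). Atp2b4 fills 26.1% of the pump column in control PYR and 4.85% in control PV neurons, and Ryr2 is the largest part of every ryanodine receptor column.

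UCMS and control libraries of each type were set against each other with limma over all genes, with Benjamini-Hochberg adjustment. None of the 10 genes passed in PYR (13 of 16092 genes called, 0.0808%), PV, SST or VIP neurons (0 genes called, 0% of 16847, 17108 and 19451). None passed for the average over types or for the difference of the stress effect between types (0% of 17427 genes each). Across the 4 types the smallest adjusted p of a member was 0.634. At an unadjusted p under 0.05 there were 1 member in PYR, 2 in PV and 0 in SST and VIP neurons. On the recovered reads edgeR and DESeq2 called 0 members in every type. Over all genes edgeR called 0, 0, 0 and 896 and DESeq2 39, 56, 54 and 108 in PYR, PV, SST and VIP neurons. At an unadjusted p under 0.05 limma had 1023 genes in PYR (6.36%), 630 in PV (3.74%), 979 in SST (5.72%) and 1001 in VIP neurons (5.15%), and the smallest adjusted p in the last 3 was 0.774.

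Atp2b1 in PYR neurons lay furthest from 0 in relation to its error. UCMS libraries ran from 5169 to 6565 normalized counts (median 5974) and control libraries from 3776 to 5745 (median 5167). All 10 UCMS libraries were above the control median, though the ranges overlapped. The means were 5981 ± 517 and 5045 ± 563, a log2 difference of 0.25 (SE 0.09, 95% interval 0.08 to 0.42), with limma p = 0.00469 and adjusted p = 0.634. It stayed between 0.20 and 0.27 with 1 PYR library left out at a time. Protein-coding genes also took a higher share of the reads in these UCMS libraries, 64.2% ± 2.26 against 58.7% ± 3.90, and with that share as a covariate the difference was 0.25 (SE 0.12, limma adjusted p = 0.998). On the recovered reads it was 0.26 by edgeR (adjusted p = 0.515) and 0.24 by DESeq2 (adjusted p = 0.242). A limma fit of the 8 groups together, with the mouse as a random block, gave 0.25 with a larger error (SE 0.18, limma p = 0.181). Atp2b3, its relative, was at 0.34 in PYR neurons (SE 0.20, 95% interval -0.05 to 0.73, limma adjusted p = 0.819), with 9 of 10 UCMS libraries above the control median. In the other types the log2 difference of Atp2b1 was -0.22 in PV, -0.19 in SST and 0.16 in VIP neurons. The test of the difference between types gave p = 0.164 (adjusted p = 1).

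Ryr3 had different signs in different types, with no call. In PV neurons UCMS libraries ran from 0 to 627 (median 334) and control libraries from 91.7 to 701 (median 352), a log2 difference of -1.10 (SE 0.54, 95% interval -2.16 to -0.05, limma p = 0.0410, adjusted p = 0.982). The means differed less, at 282 ± 207 (n = 9) and 396 ± 202 (n = 10). Without UCMS library U604 the log2 difference was -0.44. On the recovered reads it was -0.48 by edgeR and -0.49 by DESeq2, and without the 7 libraries of fewest reads -1.31 by limma. In SST neurons UCMS libraries ran from 416 to 1728 (median 699.9) and control libraries from 184 to 1048 (median 564), a log2 difference of 0.54 (SE 0.29, 95% interval -0.03 to 1.10, limma adjusted p = 0.859), with 7 of 10 UCMS libraries above the control median. It was -0.19 in PYR and 0.00 in VIP neurons. The difference of the stress effect between types had limma p = 0.0172, the smallest of the 10 genes, and adjusted p = 1. This test includes PV library U604 and was not repeated without it.

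Itpr1 averaged 6597 ± 885 in the 9 UCMS PV libraries and 5888 ± 1468 in the 10 control PV libraries. Its log2 difference was 0.21 (SE 0.10, 95% interval 0.00 to 0.41, limma p = 0.0469, adjusted p = 0.982). Control library U3 held the lowest value of 2559, and without it the difference was 0.08 (SE 0.10, p = 0.426). In PYR, SST and VIP neurons Itpr1 was at 0.02, -0.13 and -0.11.

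**Figure D4:**
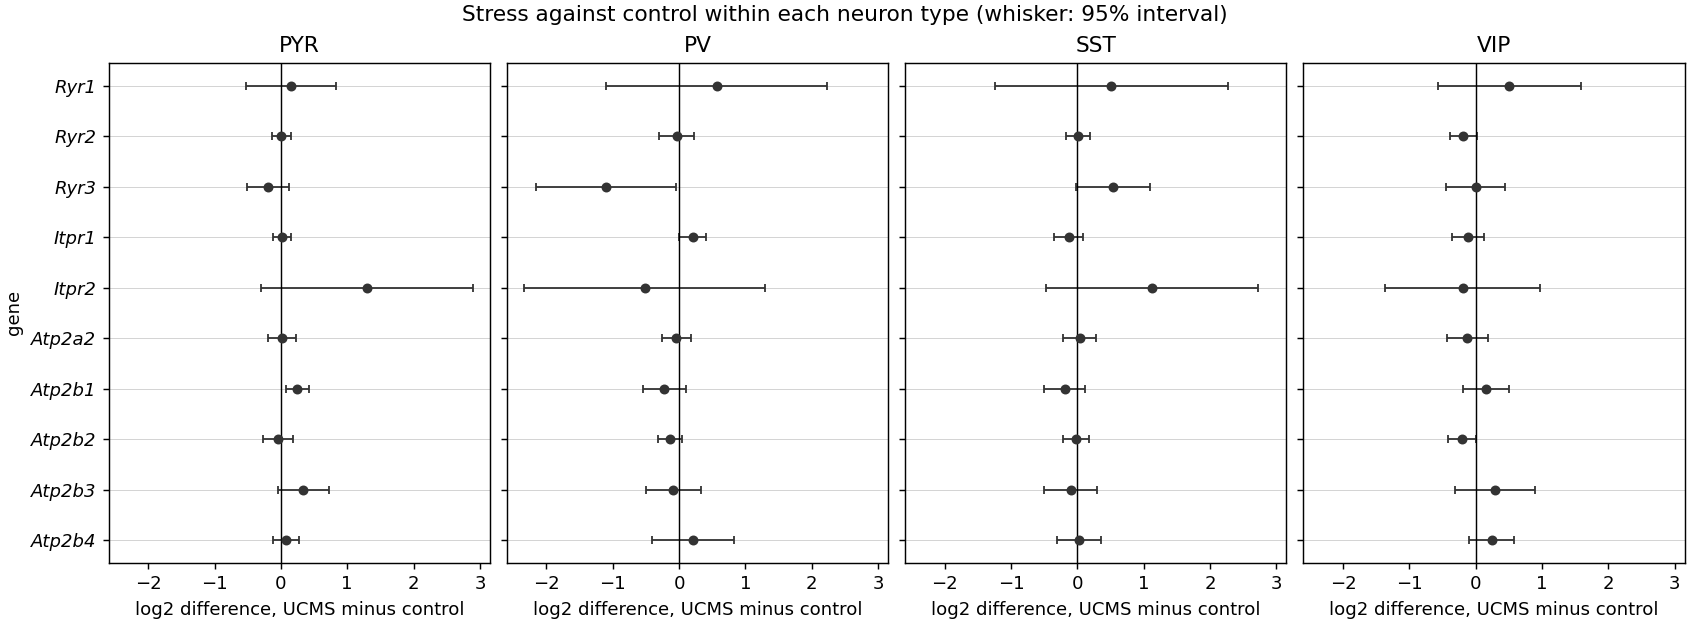
Log2 difference between UCMS and control mice (horizontal axes, whiskers 95% interval from limma) of each gene (vertical axis) in the 4 neuron types, n = 10 against 10 libraries and 9 against 10 in PV neurons. The intervals of Ryr2, Itpr1, Atp2a2 and the Atp2b pumps lie within a 2-fold change. Those of Itpr2, of Ryr1 outside PYR neurons and of Ryr3 in PV and SST neurons reach beyond it.

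How large a change these data would leave room for differed between the genes. For Ryr2, Itpr1, Atp2a2 and the 4 Atp2b pumps, all 28 intervals (7 genes in 4 types) lay within a 2-fold change in either direction, with bounds from -0.54 to 0.90. In PYR neurons the interval was -0.13 to 0.15 for Ryr2, -0.12 to 0.16 for Itpr1 and -0.19 to 0.23 for Atp2a2. For Ryr1, Ryr3 and Itpr2 only 3 of 12 intervals lay within 2-fold, and their bounds ran from -2.33 to 2.89. Itpr2 in PYR neurons was at 1.29 (95% interval -0.31 to 2.89), with means of 107 ± 120 in UCMS and 47.9 ± 49.8 in control libraries. The median library held 41 reads of it in control and 118 in UCMS PYR neurons. The median log2 difference of all genes was 0.10, 0.05, 0.15 and 0.17 in PYR, PV, SST and VIP neurons, and that of the 10 genes 0.05, -0.07, 0.02 and -0.06.

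Atp2b2 and Atp2b4 in VIP neurons leaned in opposite directions. Atp2b2 stood at 5616 ± 1091 in UCMS and 6536 ± 1597 in control VIP libraries, a log2 difference of -0.20 (SE 0.11, 95% interval -0.41 to 0.00, limma adjusted p = 0.932), below the control median in 8 of 10 UCMS libraries. Atp2b4 stood at 2494 ± 503 and 2113 ± 470, a log2 difference of 0.25 (SE 0.17, 95% interval -0.09 to 0.58, limma adjusted p = 0.934), above it in 8 of 10. As a share of the pumps Atp2b2 took 42.6% ± 4.15 in UCMS and 49.6% ± 7.48 in control VIP libraries, a difference of -7.04 percentage points (permutation p = 0.0179, adjusted p = 0.573 over 32 tests). Without the 7 libraries of fewest reads it was -4.86 points (8 UCMS against 6 control libraries, exact permutation p = 0.224, adjusted p = 0.656). None of the 32 shares (8 genes in 4 types, two-sided permutation tests, exact for PV) differed between the arms after adjustment. The share of Atp2b1 in PYR neurons was 27.7% ± 3.46 in UCMS and 25.0% ± 3.21 in control libraries (permutation p = 0.0888, adjusted p = 0.63).

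The rest of the pathway was followed in 8 lists of 85 genes, of which 74 to 82 were tested in each stress fit. None was called for stress by limma in any type, for the average or for the difference between types, and 5 of 74, 5 of 74, 3 of 80 and 8 of 82 had an unadjusted p under 0.05 in PYR, PV, SST and VIP neurons. Over all genes that share was 6.36%, 3.74%, 5.72% and 5.15%. Of the same genes edgeR called 1, Slc8b1, in VIP neurons, and DESeq2 called it too and Plcg2 in PYR neurons. Slc8b1, the sodium-calcium exchanger of mitochondria, had 0 reads in all 10 UCMS VIP libraries and stood at 43.6 ± 43.3 in control VIP libraries, 3 of them at 0 (limma adjusted p = 0.932, edgeR 0.0290, DESeq2 0.0133). Plcg2, a phospholipase C, had 0 reads in all 10 control PYR libraries and stood at 38.2 ± 60.9 in UCMS PYR libraries, 3 of them at 0 (limma adjusted p = 0.634, edgeR 0.0892, DESeq2 0.0101).

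Between types, 6 of 80 list genes were called in PYR (3 higher, 3 lower), 12 in PV (3 higher, 9 lower), 1 in SST and 7 in VIP neurons (5 higher, 2 lower) of control mice. Over all genes 4.27%, 5.29%, 1.79% and 2.82% were called. In UCMS mice the counts were 6, 15, 3 and 2 of 77, beside 4.98%, 7.37%, 2.1% and 4.15% of all genes. The lists and the comparisons were chosen with earlier results of these data known. These counts between types are therefore a description and test nothing. The same holds for the calls and adjusted p-values of single list genes between types in the next 3 paragraphs.

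The sodium-calcium exchangers, which remove calcium from the cytosol beside the pumps, had all 7 listed genes tested, and 4 of 7 were called in PYR and 4 of 7 in PV neurons of control mice, beside 4.27% and 5.29% of all genes. Slc24a2, a potassium-dependent exchanger, stood at 13322 ± 2896 normalized counts in PV, 6103 ± 1467 in SST, 3102 ± 1911 in PYR and 2631 ± 827 in VIP libraries of control mice (n = 10 each). In PV neurons its log2 difference from the other types was 1.93 (limma adjusted p = 9.29e-10), and 1.87 in UCMS mice. Slc8a2, a sodium-calcium exchanger of neurons, showed the reverse, with means of 2847 in the 10 control PYR and 544.5 in the 10 control PV libraries, with a log2 difference of -2.05 in PV neurons (limma adjusted p = 2.76e-09). It was also called higher in PYR neurons, by 1.89 in UCMS mice (limma adjusted p = 7.59e-05). Slc24a4 was likewise higher in PYR (2.70, adjusted p = 0.000537) and lower in PV neurons (-3.43, adjusted p = 2.91e-06). Slc8a3 was lower in PYR neurons (-1.77, adjusted p = 0.00313), and Slc24a3 was lower in PV (-1.66, adjusted p = 8.33e-09) and higher in SST neurons (1.08, adjusted p = 0.00128).

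Among genes that make or remove inositol trisphosphate, 16 of 16 were tested. Itpka, a kinase that phosphorylates the messenger and sits in dendritic spines, stood at 783 ± 155 in PYR and 125.2 ± 68.1 in PV libraries of control mice, with log2 differences of 1.84 in PYR (limma adjusted p = 0.000683) and -1.98 in PV neurons (adjusted p = 0.00016). Plch2 and Plch1, phospholipases C of the eta class, were higher in PV neurons, by 1.37 (adjusted p = 0.000252) and 2.94 (adjusted p = 0.00447). Plcb4, a phospholipase C coupled to G proteins, was higher in VIP neurons by 1.02 (adjusted p = 0.0246). Of these, Itpka and Plch2 were called in both arms, and Plch1 and Plcb4 in control mice only.

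Of the partners of the release channels, 17 of 20 were tested in control mice, and 3 were lower in PV neurons. Jph4 and Jph1, junctophilins that hold the endoplasmic reticulum against the plasma membrane, were at -1.34 (limma adjusted p = 0.00101) and -2.59 (adjusted p = 0.000717). Homer2, a scaffold that binds inositol trisphosphate and ryanodine receptors, was lower in PV neurons (limma adjusted p = 0.000237) and higher in VIP neurons, by 1.95 (adjusted p = 0.000742). In UCMS mice its difference in PV neurons was -1.82 (limma adjusted p = 0.0021). Casq2, a calcium-binding protein of the store, was higher in VIP neurons by 1.70 (adjusted p = 0.0378). In the other lists, Rcn1, a calcium-binding protein of the reticulum, was lower in PV neurons (-2.97, adjusted p = 0.00252), Saraf, a brake on store refilling, was lower in PV neurons (-1.64, adjusted p = 0.00986) and Psen2 was lower in PYR neurons (-2.13, adjusted p = 0.041). Casq2, Saraf and Psen2 were called in control mice only. The PV fits again held Slc17a7 at 19.8% of its PYR mean.

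Of the 5 listed family members outside the 10, 4 were low. Itpr3 averaged 18.7 to 52.6 normalized counts in the control types, and Atp2a1, Atp2a3 and Atp2c2 averaged at most 45.9, 35.8 and 53.6. Atp2c1, the calcium and manganese pump of the Golgi, was higher, at 830 ± 352 in PV, 1078 ± 299 in VIP, 1159 ± 310 in PYR and 1374 ± 222 in SST libraries.

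The genes whose log2 levels ran most closely with each member over the 79 libraries were taken from 10090 named genes with a mean of at least 50. These libraries share types and mice, so the values describe the types together with all else that varies. For Atp2b4 they were Kalrn, Enc1 and Nptxr (Pearson r = 0.837, 0.822 and 0.81), and for Ryr2 they were Enc1, Nptxr and Gas7 (0.794, 0.76 and 0.759). Atp2b1 ran with Nrcam, Lingo1 and Ksr2 (0.803, 0.789 and 0.782), Ryr3 with Chst1 and Cdh11 (0.763 and 0.738) and Itpr1 with Bsn, Rasgrp1 and Clstn1 (0.761, 0.756 and 0.697). Of the genes high in PV neurons, Atp2a2 ran with Scn8a, Pgam1 and Cdr1 (0.75, 0.69 and 0.683), Atp2b2 with Kcnab2 and Cdr1 (0.647 and 0.579) and Atp2b3 with Nxph1, Dab2ip and Ptprm (0.646, 0.643 and 0.618). For the low genes the values were smaller, Kcnh3, Lingo1 and Klhl2 for Ryr1 (0.588, 0.583 and 0.565) and Tm7sf3, Ablim1 and Aldoc for Itpr2 (0.518, 0.511 and 0.483). Aldoc is one of the astrocyte markers.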

How the data were processed

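RNA of 130 laser-captured neurons per library was sequenced from 4 neuron types of 20 mice, with a stranded total-RNA kit per the labels' protocols. Per the submitters' processing notes, the tools included HISAT2, SAMtools 1.3 and DESeq2, with GRCm38 (mm10) as genome. The sources used here do not give the read counter or annotation. The authors deposited normalized counts, a signal of counts per gene divided by 1 size factor per library. Whole reads were recovered from the steps of each column (100% of values within 0.001 reads), and 183 rows with no gene name stayed in the table without entering any list. In library SST U8 the step is too near 1 to tell recovery from rounding.

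The 10 genes, the gene lists and the comparisons were chosen with earlier results of these data known. Log2(normalized count + 4) of genes with a mean of at least 10 was fitted with limma 3.58.1 (trend, robust, R 4.3.3), with Benjamini-Hochberg adjustment at 0.05 over all genes tested. Stress was tested within each type, over mouse means, and as a difference between types. Each type was fitted against the average of the remaining 3, with the mouse as a block, and called at an adjusted p under 0.05 and a 2-fold difference. Alternatives used edgeR 4.0.16 and DESeq2 1.42.0 on recovered reads. Family shares were compared with two-sided permutation tests (100000 resamples, exact for PV) in SciPy 1.17.1. Scripts were tested on simulated data. Libraries with the same number come from the same mouse per the labels, and the median correlation of their deviations from the group means was 0.00773 over 117 pairs, with 0 pairs over 0.1.

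Named genes are the 10, the list genes called in a fit and up to 4 further genes of each list with the highest mean, and the 3 named genes closest to each of the 10 by Pearson correlation over 79 libraries. Some of these are not reported here. Of 38879 genes, 38636 matched GENCODE M21, which gave coordinates and exon lengths. The floor of 3 reads and the 95% intervals cover counting or sampling error only.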

Additional observations from a re-analysis of the deposited data

Results flagged for a closer look

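In 15 of 80 groups of libraries (10 genes in 8 groups), the highest or the lowest library lay far from the nearest other one by Dixon's criterion, which chance alone exceeds in about 1 in 20 groups. PV library U3 of the control mice, one of the 7 of fewest reads, was the source of 4: Ryr1 at 915 normalized counts (next library 388), Itpr1 at 2560 (next 5192), Atp2a2 at 9030 (next 5860) and Atp2b3 at 2480 (next 1782). Itpr2 gave 5 more, at 425 in PYR UCMS library U607 (next 131), 836 in PV control library U9 (next 211), 622 in PV UCMS library U605 (next 274), 902 in VIP control library U10 (next 460.2) and 550 in VIP UCMS library U602 (next 284). Ryr1 stood at 683 in PV UCMS library U608 (next 294) and at 258 in SST UCMS library U603 (next 134). Ryr2 stood at 5250 in PV UCMS library U608 (next 3945). Atp2b1 was low at 572 in VIP control library U10 (next 2661), and Atp2b3 was low at 141 in VIP UCMS library U601 (next 694). Atp2b2 stood at 10100 in SST control library U6 (next 6802). The cause of these values was not tested.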

How the results depend on the processing

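For stress, 0 of the 10 genes were called under each of 53 alternatives and in 79 fits that left out 1 library each (0 to 0 called). A fit of the 8 groups together, with a random replicate block for the mouse, also gave 0, and 0 of all genes in PYR neurons in place of 13. Of the type alternatives, 51 of 64 gave the main count of members, and without the replicate block the counts were 2 in PYR, 2 in PV and 2 in VIP neurons of control mice. Over all genes 712, 906 and 463 of 17498 were called there. edgeR with the mouse as replicate block called 4 members in PYR neurons of each arm, 0 in VIP neurons of control mice and 0 in SST neurons of UCMS mice. Over all genes it called 591 of 17498 (PYR control), 708 of 17638 (PYR UCMS), 330 of 17498 (VIP control) and 300 of 17638 (SST UCMS). In PYR neurons of UCMS mice the count was 4 with a mean of at least 50, a pseudocount of 16 or quantile normalization, and in VIP neurons of UCMS mice it was 1 with the first 2 of these. In VIP neurons of control mice the count of members was 1 with no filter, a pseudocount of 1 or quantile normalization. It was 0 without the 7 libraries of fewest reads, a choice made after seeing the data. In that order, all-gene calls were 357 of 34995, 411 of 17498, 548 of 17498 and 204 of 17097. Like the main counts between types, these counts test nothing. For the pathway lists, DESeq2 called 1 gene for stress in PYR and 1 in VIP neurons, and edgeR 1 in VIP neurons. Their type counts became 3 (PYR control), 0 (SST control) and 1 (VIP UCMS) with edgeR and the replicate block, 1 (VIP UCMS) with a pseudocount of 1, 4 (VIP control) with no filter, and 3 (SST control) and 1 (VIP UCMS) without the 7 libraries. PYR and SST neurons hold none of these, so stress was not refitted there.

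Small uncalled stress differences changed sign, with direction read at 2 decimals. Without the 7 libraries the log2 differences were 0.04 for Atp2a2 in PV, and 0.03 for Atp2a2, -0.02 for Atp2b1, 0.24 for Itpr2 and -0.24 for Ryr1 in VIP neurons. With DESeq2 they were -0.05 for Ryr1 in PV and -0.03 for Atp2a2 and -0.03 for Atp2b4 in SST neurons. With genes detected as covariate they were -0.03 for Atp2a2 in PYR and 0.03 for Atp2b2 and -0.17 for Ryr1 in SST neurons, and with the protein-coding share -0.05 for Ryr2 in PYR neurons. With quantile normalization they were -0.26 for Ryr1 in SST neurons and 0.01 for Itpr1 on average. The share difference became -0.0192 points for Ryr1 in PV without length scaling, and -0.976 for Atp2b1 and -0.351 for Itpr1 in VIP neurons without the 7 libraries. Leaving out 1 library moved the sign of 14 differences. In PYR neurons Atp2a2 ran from -0.03 to 0.06, Atp2b2 from -0.11 to 0.04, Atp2b4 from -0.01 to 0.14, Itpr1 from -0.02 to 0.07 and Ryr2 from -0.02 to 0.08. In PV neurons Atp2a2 ran from -0.09 to 0.04 and Atp2b4 from -0.04 to 0.36. In SST neurons Atp2a2 ran from -0.06 to 0.14, Atp2b2 from -0.07 to 0.09, Atp2b4 from -0.08 to 0.10 and Ryr2 from -0.05 to 0.04. In VIP neurons Atp2b1 ran from -0.09 to 0.25, Itpr2 from -0.51 to 0.03 and Ryr1 from -0.13 to 0.69. The cause was not tested. The widest stress intervals were those of Itpr2 and Ryr1, with bounds of -2.33 to 2.89 for Itpr2, and the part of depth in them was not tested.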
